A study of Drosophila melanogaster with 11 samples.

Results

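The Qseq peaks described here are those that lie on the unplaced sequence of the Drosophila melanogaster genome, the stretches that had not been assigned to a place on a chromosome. They were chosen by position alone: every peak of the deposited Qseq table whose sequence is neither 2L, 2R, 3L, 3R, X, chromosome 4 nor the mitochondrial genome was taken. This gave 353 of 3973 peaks (8.88%). All 353 lie on a single sequence, numbered to at least 10044129 in the authors' table, where it is called unplaced scaffolds. Neighbours on it need not be neighbours in the genome. Only 4 peaks have flanking genes that both have a chromosome in Release 6. Of these, 3 lie within 893 bp between the same pair of genes, which are on different chromosomes. Gaps and positions below are therefore those of the table's sequence. A peak is called beside a gene, or between genes, where these are its listed flanks, at distances not given here. The set they are mainly read against is the 3585 peaks of 2L, 2R, 3L, 3R and X, called the arms below.

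The study mapped m5, m8 (both HLH repressors of the E(spl) complex) and Su(H) along fly chromosomes by ChIP or DamID, in 11 libraries that make up 6 conditions. The peak tables hold 1 of the 2 libraries of a single condition, un-driven m8 DamID, and no source used here says which of the pair it is. These embryos carried a UAS transgene for Dam fused to E(spl)m8-HLH and no Gal4 driver, so that leaky expression in the whole embryo supplied the protein. The transgene was a P-element insertion whose FRT-flanked stop cassette had been taken out with FLP. Embryos of stages 9 to 16 were collected over 15 h at 26 °C, and DNA was sequenced with reads of 100 bp. None of the 11 libraries is of unfused Dam, so the methylation that Dam leaves without m8 cannot be taken away from any value below. With 1 library there is no replicate and no test, and each interval is exact, at 95%, and covers counting error only. Peak reads are given as RPM, the reads of a peak per 1000000 reads of the library, and 1 RPM is close to 2 reads, since the total is 1925156 reads. The 353 unplaced peaks held 88221 reads, 15.01% of all peak reads and 4.58% of the library.

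Sequence that resists placement in a fly genome is mostly heterochromatin, the compact and repeat-rich DNA around centromeres and along the Y chromosome, where satellites, transposons, ribosomal RNA genes and a small number of protein-coding genes lie together. The m8 protein, a bHLH repressor, is made where Notch is active. The Dam methyltransferase fused to it marks the adenine of GATC near its binding places, DpnI cuts at marked sites, and the DNA between a pair of cut sites is amplified and sequenced. Reads of a repeat cannot be assigned to a particular copy where the copies are alike over the length of a read.

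The numbering of the unplaced sequence is not that of Release 6 of the genome, whose longest scaffold outside the chromosomes has 88768 bp, so the bases under a peak could not be read. The repeat genes that the peaks name can be read from Release 6 by name, and stretches of 5 of them are shown because unplaced peaks name these genes or, for Su(Ste), the repeat family that many of them are read as naming. Each stretch is 160 bases, 5′ to 3′ along the gene, from RefSeq's Release 6, with the Dam target GATC in capitals. The 18SrRNA:CR41548 stretch is bases 43484 to 43643 of the rDNA scaffold assigned to X and Y, plus strand, and lies in the ribosomal RNA gene itself. The 28SrRNA-Psi:CR40596 stretch is bases 17930 to 18089 of that scaffold, plus strand, in an rRNA pseudogene. The Su(Ste):CR41533 stretch is chrY:897430-897589 and the Su(Ste):CR40820 stretch is chrY:953988-954147, both on the minus strand and both exonic in genes annotated as lncRNA. The SteXh:CG42398 stretch is bases 1538 to 1697 of a scaffold assigned to X, plus strand, with 151 of its 160 bases in coding exons.
18SrRNA:CR41548: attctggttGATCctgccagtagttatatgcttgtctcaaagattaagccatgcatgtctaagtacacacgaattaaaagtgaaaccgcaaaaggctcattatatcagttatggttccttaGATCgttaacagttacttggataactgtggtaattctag
28SrRNA-Psi:CR40596: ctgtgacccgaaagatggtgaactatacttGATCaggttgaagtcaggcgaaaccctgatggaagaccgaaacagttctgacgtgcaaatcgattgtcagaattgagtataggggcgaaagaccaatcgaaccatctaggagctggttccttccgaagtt
Su(Ste):CR41533: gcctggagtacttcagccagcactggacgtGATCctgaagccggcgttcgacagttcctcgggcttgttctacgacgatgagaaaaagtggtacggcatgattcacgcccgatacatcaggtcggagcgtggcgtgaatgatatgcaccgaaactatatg
Su(Ste):CR40820: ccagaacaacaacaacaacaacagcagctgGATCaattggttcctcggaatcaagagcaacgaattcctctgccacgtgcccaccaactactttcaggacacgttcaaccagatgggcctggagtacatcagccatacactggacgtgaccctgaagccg
SteXh:CG42398: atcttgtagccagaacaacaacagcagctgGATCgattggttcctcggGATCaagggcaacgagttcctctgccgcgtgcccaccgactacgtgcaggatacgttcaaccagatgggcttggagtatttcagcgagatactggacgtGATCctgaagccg

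SteXh is a copy of Stellate, a repeated gene of the X chromosome, and Su(Ste) is the Suppressor of Stellate repeat of the Y chromosome, whose transcripts give rise to piRNAs that silence Stellate in the testis. The SteXh and Su(Ste):CR40820 stretches had the same base at 134 of 160 positions when laid side by side without gaps (83.8%). The SteXh stretch holds 3 GATC sites and the Su(Ste):CR40820 stretch 1. Over all 34 Su(Ste) genes of Release 6, 30 (88.2%) held at least 1 GATC, with a median of 3 sites and 2.42 sites per kb. Of the 4143 genes of 800 to 1600 bp in Release 6, 97.1% held a site, with a median of 5 and 4.34 per kb. The Su(Ste) genes were 500 to 1848 bp long, and those without a site had 500, 692, 727 and 1105 bp. The shares with a site are therefore not of like lengths. The scaffolds of Release 6 that belong to no chromosome sequence had 3.10 GATC per kb and a median distance of 202 bp between sites, against 2.80 per kb and 196 bp on the arms. These values describe the scaffolds of Release 6, and not the unplaced sequence of the table.

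Most unplaced peaks were as high as peaks on the arms, but shorter. Their median was 41.0 RPM (interval 37.9 to 44.2), against 40.0 RPM (39.0 to 41.6) on the arms, and their quartiles were 27.0 and 66.0 RPM, against 27.0 and 72.7 RPM. Their median length was 457 bp (426 to 476), against 752 bp (740 to 771) on the arms. Reads per bp, the reads of a peak divided by its length, had a median of 0.174 (0.162 to 0.191) in unplaced peaks and 0.109 (0.107 to 0.111) on the arms. The arms were alike among themselves, with median lengths of 727 to 767 bp and median reads per bp of 0.103 to 0.114. The 18 peaks of chromosome 4, whose sequence is rich in repeats as well, had a median length of 813 bp and 0.112 reads per bp. The intervals of the medians did not overlap between unplaced peaks and any arm in length or in reads per bp. Those of chromosome 4 were 641 to 1098 bp and 0.0788 to 0.174 reads per bp, so that the second overlapped the interval of unplaced peaks. In RPM the interval of unplaced peaks overlapped that of each arm. These intervals take every peak as separate, although neighbouring peaks can share a repeat. The lowest unplaced peak had 20.3 RPM, just above the authors' limit of 20 RPM.

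**Figure D1:**
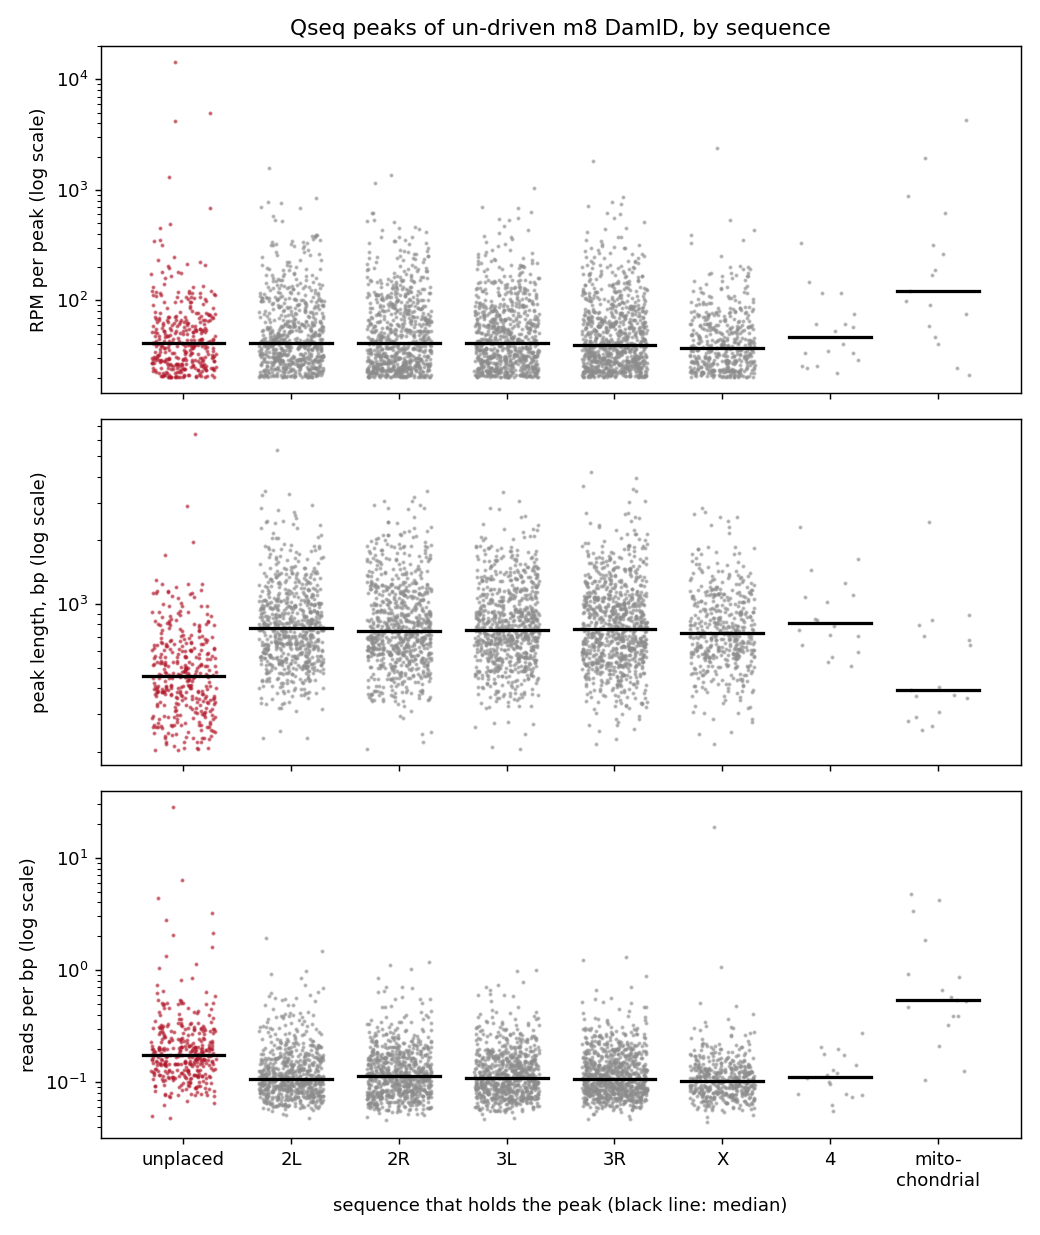
RPM, length and reads per bp of each Qseq peak (points, all on log scales) by the sequence that holds it, with the unplaced peaks in red at the left and the median of each sequence as a black line. The medians of RPM lie close together from unplaced to X (41.0 RPM on unplaced sequence), while unplaced peaks are shorter (median 457 bp, against 752 bp on the arms) and have more reads per bp.

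A small number of peaks held most of the reads. The highest 3 unplaced peaks took 51.7% of the 88221 reads (interval 51.4 to 52.0), the highest 10 took 60.3%, and the highest 20 took 64.8%. On the arms the highest 3 of 3585 peaks took 2.34% of the reads. Without those 3 peaks, the other 350 unplaced peaks summed to 22135 RPM, against 45825 RPM with them. In classes of RPM, 66 unplaced peaks lay under 25, 148 from 25 to 50, 91 from 50 to 100, 32 from 100 to 200, 11 from 200 to 500, and 5 at 500 or more. At least 100 RPM was reached by 48 of 353 unplaced peaks (13.6%), against 577 of 3585 on the arms (16.1%) and 16.1% of all Qseq peaks. High peaks thus made up no larger share of the unplaced peaks, while the highest of them were higher than any peak of the arms. The highest peak of each arm was 1573.9 RPM at CG2991 on 2L, 1367 RPM at tou on 2R, 1038 RPM at Eip75B on 3L, 1826 RPM at CG2022 on 3R and 2417 RPM beside CG14621 on X. The highest of chromosome 4 had 328 RPM at pan.

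The highest peak of the whole table lay on unplaced sequence and names no gene. It ran from 5289945 to 5296306 and held 27864 reads, 14474 RPM (14304 to 14645), over 6362 bp. A neighbour from 5299126 to 5302052 held 8166 reads, 4242 RPM (4150.2 to 4335), and ranked 4 of all 3973 peaks. Between and after them lay weaker peaks of 63.9 RPM (from 5298238) and 232 RPM (from 5302171). These 4 peaks, each under 5000 bp from the next, covered 10909 bp of a stretch of 13145 bp and together held 36600 reads, 41.5% of the unplaced reads. Their reads per bp were between 0.175 and 4.38, so that the read level changed strongly within the stretch. None of the 4 was overlapped by a MACS peak above 20 RPM. Beside this stretch, the mitochondrial genome had 17 peaks over 13826 bp that summed to 9244 RPM, with 0.104 to 4.77 reads per bp and a highest peak of 4273 RPM at COX1, and 5 of the 17 were overlapped by MACS peaks. The authors' chromosome column calls these 17 peaks 3R, and they were placed by their sequence identifier. What the bases of the stretch are was not tested.

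Naming no gene at all was otherwise uncommon. It was found for 13 of 353 unplaced peaks (3.68%), against 4 of 3585 on the arms (0.112%) and 0.428% of all Qseq peaks. Of the 9 gene-less peaks outside the stretch, 8 were overlapped by MACS peaks above 20 RPM. They reached from 23.4 to 119 RPM, and 3 of them, of 119, 104 and 98.7 RPM, followed one another between 5224261 and 5225702.

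Several of the other high peaks were short and dense. The second highest unplaced peak, from 10033711 to 10034049, held 9578 reads over 339 bp, 4975 RPM (4876 to 5076). Its 28.3 reads per bp were the most of any Qseq peak, and the most on any arm was 18.8 reads per bp in the 248 bp peak beside CG14621 on X. It lies between CR41619 and CR40596, and CR40596 is the rRNA pseudogene 28SrRNA-Psi shown above. A further peak, from 10043858 to 10044129, lists the same flanks, so CR40596 lies beyond 10044129 and not next to the dense peak. A peak of 398 bp beside CR41550 had 1309.5 RPM (1259 to 1362) and 6.33 reads per bp. Another beside CR41550, 7880 bp before it, had 317 RPM over 285 bp. A weaker peak from 9139082 also lists CR41550 upstream, so CR41550 lies before 9139082, while the 398 bp peak starts at 9151200. Neither CR41619 nor CR41550 was matched to a gene of Release 6. A peak beside CG17925 had 692 RPM (656 to 731) over 410 bp, and one between SteXh and a gene listed as Su had 487 RPM (457 to 519) over 453 bp. The longer ones among the highest 10 were beside CR40959 (448 RPM over 1699 bp), between CR40597 and CR40613 (349 RPM over 795 bp) and beside CG41038 (345 RPM over 1977 bp). All of the highest 10 lay outside genes. Among the next 10, a peak beside CG40928 had 179.7 RPM over 648 bp.

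**Figure D2:**
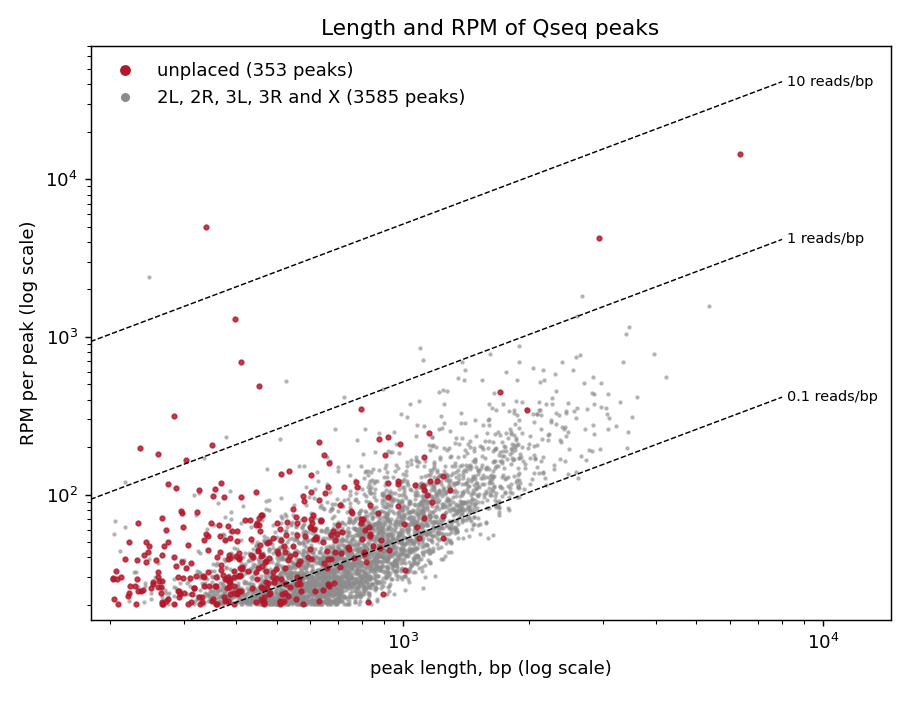
RPM of each Qseq peak against its length, both on log scales, with the 353 unplaced peaks in red, the 3585 peaks of the arms in grey, and dashed lines at 0.1, 1 and 10 reads per bp. Peaks of the arms lie in a band in which RPM grows with length, while 11 unplaced peaks lie at or above the line of 1 read per bp, among them the short peak of 4975 RPM at the left and the gene-less peak of 14474 RPM at the right.

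At least 1 read per bp was found in 11 of 353 unplaced peaks (3.12%), against 10 of 3585 on the arms (0.279%) and 0.629% of all Qseq peaks. Of the 11, 9 were 236 to 453 bp long, and the other 2 were the long peaks with no gene named. The 9 short ones include peaks beside CR41609, a further 28SrRNA-Psi pseudogene (205 RPM), between CR40743 and CR41619 (196 RPM), between Su and CR40572 (181 RPM), and between CG40249 and CG40196 (166 RPM), which are annotated in Release 6 as Pzl on 3R and Maf1 on 2R. Across the 353 unplaced peaks, RPM and length had a Spearman correlation of 0.431, against 0.744 across the 3585 peaks of the arms. All these points come from the same library, and longer peaks can hold more reads by construction, so both values are a description.

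Unplaced peaks lay close together. The gap between neighbours had a median of 3059 bp (1245 to 7334) and a lower quartile of 221 bp, against a median of 10616 bp (9553 to 11728) and a lower quartile of 1927 bp on the arms. Per Mb up to the last peak there were 35.1 unplaced peaks, within the 20.9 to 36.3 of the arms, so the shorter gaps were not matched by more peaks per Mb. The gaps also depend on how Qseq split its peaks. Several Qseq peaks were spanned by 53 of 247 unplaced MACS peaks above 20 RPM, against 296 of 3935 on the arms. A neighbour nearer than 1000 bp was found for 219 unplaced peaks (62.0%), against 1238 on the arms (34.5%) and 37.1% of all Qseq peaks. In 30 of the 352 neighbouring pairs, the peaks overlapped. Joined wherever the gap was under 1000 bp, the 353 peaks formed 207 groups, of which 134 held a single peak and 37 held 3 or more.

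**Figure D3:**
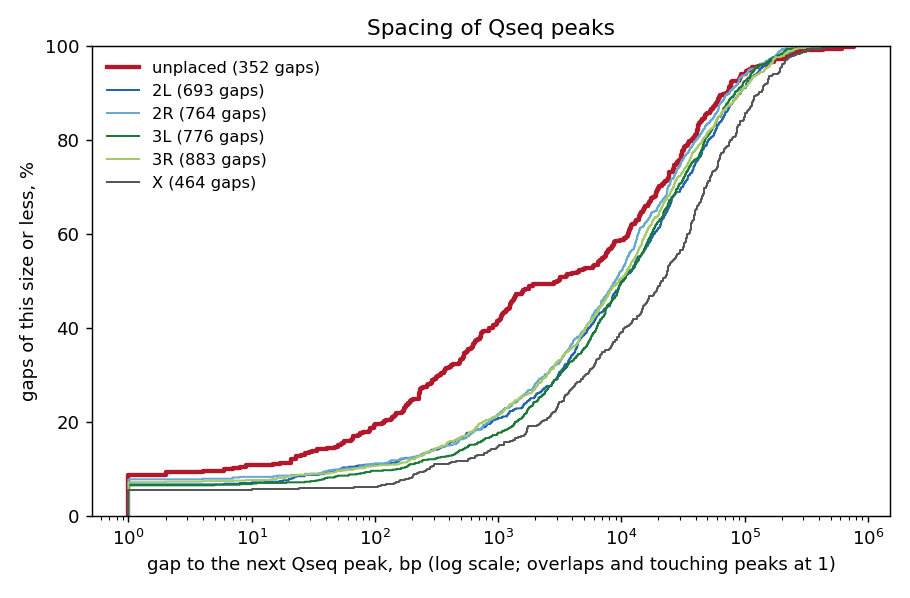
Cumulative share of the gaps between neighbouring Qseq peaks (vertical axis, %) by the size of the gap in bp (log scale, overlapping or touching peaks drawn at 1), for unplaced sequence (thick red line) and each arm. The unplaced line lies above those of all 5 arms from 1 bp to about 5000 bp, with 41.5% of its gaps under 1000 bp, against 14.9% on X and 21.6% on 2R.

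The largest group held 12 peaks over 10379 bp from 3795484, beside CG42619, with a sum of 835 RPM and single peaks of 20.3 to 123 RPM. A group of 8 lay beside CG41367 from 2730104, with a sum of 229 RPM. Release 6 gives both names to PRY, a polycystin-related gene of the Y chromosome that is used in sperm. None of these 20 peaks was overlapped by a MACS peak above 20 RPM, against 76.3% of all Qseq peaks that were. Another group of 8, from 5485377, lay between CG41562 and CG40818 and summed to 416 RPM, with 4 of the 8 overlapped by MACS peaks. A group of 6 beside Su from 6560755 summed to 390 RPM, and all 6 were overlapped. The genes of these groups were named after their values had been seen.

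Along the unplaced sequence the peaks were spread unevenly. Its first and second megabase held 2 and 5 peaks, and the megabases from the third to the tenth held 21 to 58. The last, incomplete megabase held 3 peaks with a median of 196 RPM. The tenth megabase held the most, 58 peaks, of which 27 lay inside genes, and the ninth held 48, of which 15 did.

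Few unplaced peaks lay inside a gene. In the authors' annotation 65 of 353 peaks intersected a gene (18.4%, interval 14.5 to 22.9), against 2874 of 3585 on the arms (80.2%, interval 78.8 to 81.5) and 74.7% of all Qseq peaks. The length of the unplaced sequence that genes cover was not known here, so this share cannot be set against the share of sequence in genes. In all, the 353 peaks name 93 genes, 38 that a peak lies in and 75 that flank a peak, and 57 of the 93 names begin with CR, the prefix FlyBase gives to non-coding genes and pseudogenes. Only 30 names (32.3%) matched a gene of Release 6.

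The matched names bear on the word heterochromatic. They stand for 27 genes of Release 6, of which 11 are on assembled arms, 7 on the assembled Y chromosome and 9 on other scaffolds. All 11 on the arms lie in the part next to the centromere, none reaching further than 3.26 Mb, or 10.2% of the arm, from that end of the assembled sequence. The 63 peaks that name a gene of the Y had a median of 37.4 RPM, the 29 that name one of the X 41.6 RPM, and the 27 that name one of 3L 34.3 RPM. The 9 peaks that name a gene of 3R had a median of 71.2 RPM and the 6 that name one of 2R 64.4 RPM, and 3 peaks count in both. Peaks beside Y genes were therefore about as high as the median of all unplaced peaks. The embryos were not said to be sorted by sex, and a peak on a repeat shared by X and Y cannot be assigned to either. For the 198 peaks whose genes were not matched, and the 13 with no gene, no chromosome was counted. The name Su, read below as Su(Ste) of the Y, was among those not matched. A peak naming Su is among the 63 only where it also names a matched gene of the Y. The 85 peaks that name Su had a median of 37.4 RPM.

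The highest peaks inside genes were in CR genes, and the single peak inside a CG gene, CG40378, had 57.7 RPM. There were 48 of them, in 36 genes, with a median of 55.1 RPM. Of the 48, 9 reached 100 RPM (18.8%), near the 16.1% of all Qseq peaks, and 46 were overlapped by MACS peaks above 20 RPM (95.8%), against 76.3% of all Qseq peaks. The highest were 245 RPM (223 to 268) in CR40779, 225 RPM (204 to 247) in CR40503, 216 RPM (195 to 237) in CR40621, 211 RPM (191 to 232) in CR40582 and 178 RPM (159 to 198) in CR40571. What these RNAs do is not annotated in the tables used, and none of the 5 names matched a gene of Release 6. The ribosomal gene 18SrRNA, which gives the RNA of the small ribosomal subunit, was CR41548 in the table, and its single peak had 37.9 RPM, close to the median of all unplaced peaks. By the names that matched Release 6, 7 peaks named a ribosomal RNA gene or pseudogene, at 21.3 to 4975 RPM (median 37.9 RPM). Of the 7, the peaks of 4975 and 205 RPM, each with a 28SrRNA-Psi pseudogene as a listed flank, had over 1 read per bp. CR names without a match could not be classed, and the MACS peak over the 29.1 RPM Qseq peak in CR40963 also lists CR40454, a ribosomal RNA gene by its name in that table.

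A gene listed as Su was named by 85 of the 353 unplaced peaks (24.1%), more than any other name. Names in the table had lost all that followed an opening bracket. In Release 6, 47 genes begin with Su and a bracket, and the 34 of them that lie off the arms are all Su(Ste), on the Y, so Su was read as Su(Ste) here, which the table itself does not state. The 16 Qseq peaks inside Su genes were low and even, at 20.3 to 66.0 RPM (median 31.2 RPM), and none reached 100 RPM, against 16.1% of all Qseq peaks. Of the 16, 15 were overlapped by MACS peaks above 20 RPM (93.8%), against 76.3% of all Qseq peaks, and 16 peaks are few to read either share from. The low values depend on the Qseq calls, since MACS peaks inside Su included 133 RPM (from 9487346) and 111 RPM (from 7242797). The first overlaps a Qseq peak of 132 RPM that lists Su only as a flank, and the second overlaps no Qseq peak. The 69 peaks that Su only flanked had a median of 39.0 RPM, and the highest was the one of 487 RPM, which starts at 6660904. Its other listed flank is SteXh, which is also listed upstream of a peak from 6636672 and so lies before that position. A second peak between SteXh and Su, of 117 RPM, overlapped the one of 487 RPM by 21 bp. The count of 85 leaves out 7 peaks beside CG41533 (6 peaks, 24.4 to 108 RPM) or CG40820 (1 peak, 23.4 RPM), names that Release 6 gives to Su(Ste) copies. With them there were 92 peaks (26.1%), with a median of 38.2 RPM. Su was named after its count had been seen, as were PRY, klhl10 and lovit.

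Peaks beside 3 protein-coding genes, picked after the data had been seen, were less often overlapped by MACS peaks. PRY was named by 42 peaks, at 20.3 to 123 RPM (median 43.1 RPM), of which 14 were overlapped. lovit, which encodes a transporter of synaptic vesicles in photoreceptors, was named as CG41087 by 27 peaks with a median of 34.3 RPM, of which 4 were overlapped. klhl10, which encodes a Kelch protein needed for sperm formation, was named by 19 of the same 27 peaks, and none of the 19 was overlapped. Together 69 peaks named at least 1 of these 3 genes. Of the 69, 18 (26.1%) were overlapped by a MACS peak above 20 RPM, against 244 of the other 284 unplaced peaks (85.9%). The 19 klhl10 peaks follow one another from 2015209, and neighbouring peaks are not separate observations, so the contrast is a description. Low overlap was not confined to these genes: 4 of 9 peaks naming CG40813 and 5 of 10 naming CG41562 were overlapped. The median of the 69 peaks was 35.3 RPM, against 41.6 RPM in the other 284.

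**Figure D4:**
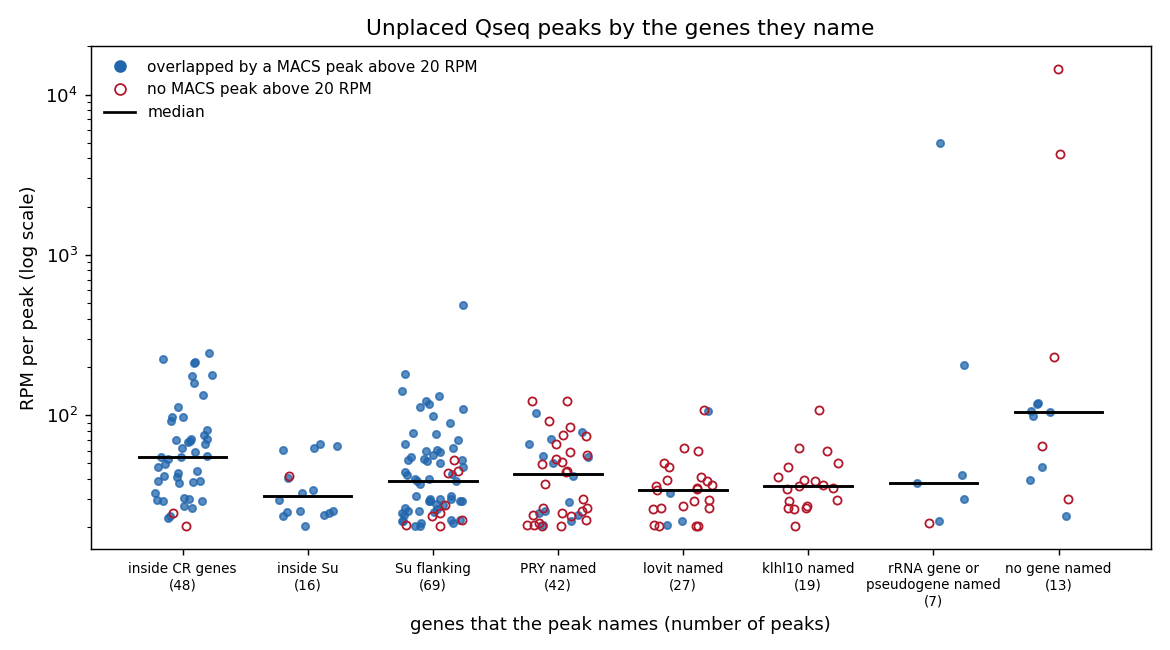
RPM (log scale) of unplaced Qseq peaks by the genes they name, with the number of peaks in brackets, filled blue points for peaks overlapped by a MACS peak above 20 RPM, open red circles for peaks that were not, and the median as a black line; the 19 klhl10 peaks also stand under lovit. The 16 peaks inside Su are low, at 20.3 to 66.0 RPM, the 19 klhl10 peaks are all open, and the gene-less peaks reach 14474 RPM.

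Over all unplaced peaks the MACS table of the same library, which the authors cut at 20 RPM, overlapped 262 of 353 (74.2%, interval 69.3 to 78.7), against 2749 of 3585 on the arms (76.7%, 75.3 to 78.1) and 76.3% of all Qseq peaks. With the MACS peaks under 20 RPM added, 267 unplaced peaks were overlapped (75.6%), against 78.7% on the arms and 78.3% of all Qseq peaks. The share was thus near that of the arms. The 86 unplaced peaks with no MACS peak in either table held 48.9% of the unplaced reads, with the 2 highest gene-less peaks among them. Both tables come from the same library, so an overlap is not an independent measurement.

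Where a Qseq peak and a MACS peak overlapped each other and nothing else, their RPM could be set side by side. In 134 such unplaced pairs the MACS RPM was 0.935 of the Qseq RPM in the median (quartiles 0.829 and 1.17), against 0.945 (lower quartile 0.859) in 2120 pairs of the arms. The values parted in dense peaks. Qseq reads set the density and also divide the ratio, so lower ratios in dense pairs are partly built in, and they are a description. For the 7 unplaced pairs of at least 1 read per bp, all 7 ratios were under 1, from 0.0406 to 0.595. At 10033711 the MACS peak had 202 RPM over 431 bp, against 4975 RPM for the Qseq peak, and beside CR41550 it had 203 RPM, against 1309.5 RPM. Both of these MACS peaks span all of their Qseq peak, so MACS RPM and Qseq RPM do not count the same reads. For the 8 such pairs of the arms the ratios were 0.0561 to 0.717, so the difference was not particular to unplaced sequence. For the 127 unplaced pairs under 1 read per bp, 68 ratios were below 1 and 57 above, with a median of 0.957. The highest MACS peak on unplaced sequence had 403 RPM, from 5224027 to 5227071, and names no gene.

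**Figure D5:**
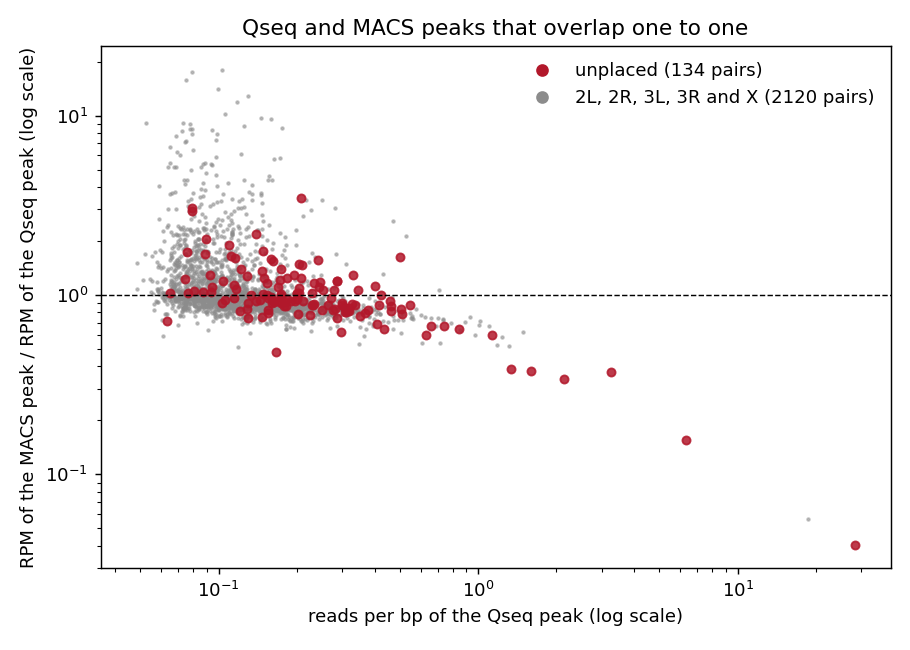
Ratio of the RPM of a MACS peak to that of the Qseq peak it overlaps alone (log scale), against the reads per bp of the Qseq peak (log scale), for 134 unplaced pairs in red and 2120 pairs of the arms in grey, with a dashed line at a ratio of 1. Pairs under 1 read per bp lie on both sides of the line, and those at 1 read per bp or more lie below it on unplaced sequence and on the arms, down to 0.0406 at 28.3 reads per bp.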

How the data were processed

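Reads were assembled by the authors in SeqMan NGen 12.2 (DNASTAR), and peaks were called with Qseq at p 0.05 and 20 RPM. The submitters' processing notes name dm6, but the numbering of the unplaced sequence is not that of Release 6. The deposited count of a peak is its number of reads, and the deposited RPM is that count per 1000000 library reads, scaled by the authors. The count and RPM of each peak gave the same library total within rounding (1925113 to 1925193). Deposited MACS RPM values were whole reads of this total within 0.01 read in 100% of peaks. For MACS, the sheet names state cut values of 20 and 25, whose scale is not explained, and no version or other setting is stated in the sources used. The deposited p-value columns, and a MACS score, were not used beyond the authors' threshold. Columns of no sample numbered 0.

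Length is end minus start plus 1, and reads per bp is the count over the length. Intervals at 95% are exact Poisson for RPM, exact Clopper-Pearson for shares and by order statistics for medians. Whether PCR copies of a molecule count as separate reads in the Qseq counts was not established here. Whether they do in the MACS values is not stated in the sources used. MACS counted far fewer reads than Qseq over the densest Qseq peaks. MACS overlap means at least 1 bp. Names were matched to RefSeq's Release 6 by symbol or by a synonym of a single gene. The text names the genes of the 20 unplaced peaks with the highest RPM and the gene of the highest peak of each other sequence, and says where a gene was named after its values were seen. The members, lists and comparisons were chosen with earlier results of these data known. Interval and overlap code was tested on simulated data. Computations used scipy 1.17.1, pandas 2.3.3 and numpy 2.4.6 under Python 3.11.15, and figures matplotlib 3.10.9.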

Additional observations from a re-analysis of the deposited data

How the results depend on the processing

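No paired analysis was possible because only 1 library stands in the tables. Of 34 values recomputed under an alternative, 20 stayed within their interval or within 1.5 times the count. With overlapping or touching Qseq peaks merged, the median gap of unplaced peaks rose from 3059 to 6721 bp, still within its interval. With peaks of 50 RPM or more alone, 139 unplaced peaks were left, with a sum of 39180 RPM, medians of 74.3 RPM, 0.276 reads per bp and 604 bp, and a median gap of 22954 bp. In the MACS table above 20 RPM, 247 unplaced peaks summed to 19177 RPM, with medians of 54.5 RPM, 0.121 reads per bp and 843 bp, 27.5% inside a gene, and a median gap of 16516 bp. In that table the reads per bp of unplaced peaks were 0.121, against 0.0895 on the arms, and the lengths 843 bp, against 1127 bp, so the directions were as in the Qseq table. No MACS gap of the arms is given here. MACS and Qseq RPM do not count the same reads, so their sums are not of a like quantity. The sum was 31352 RPM without the highest peak, and 26814 RPM without the 4 neighbouring peaks that name no gene, an alternative chosen after seeing the data. The limits are 1 library, no unfused Dam, and repeats whose reads cannot be told apart.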

Other observations

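The MACS table held 60 unplaced peaks above 20 RPM that no Qseq peak overlapped, of 247 in all. Their median was 33.0 RPM and the highest had 169 RPM. Of its 247 unplaced peaks 187 (75.7%) were overlapped by a Qseq peak, against 61.5% on the arms. Several Qseq peaks, up to 4, were spanned by 53 of the 247, against 296 of 3935 on the arms. One MACS peak was thus more often split into several Qseq peaks on unplaced sequence, which bears on the lengths and gaps above. The MACS table under 20 RPM held 91 more unplaced peaks, with 6.75 to 19.7 RPM.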
